A study of Mus musculus with 6 samples.

Results

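Antioxidant and glutathione enzymes were followed here as one gene group: the superoxide dismutases, glutathione peroxidases, peroxiredoxins, thioredoxins with their reductases, glutaredoxins, glutathione transferases, quinone reductases and methionine sulfoxide reductases. Members were taken by gene symbol alone, with no measured value used, and 37 of the 5538 genes in the table matched. In the mouse annotation 75 protein-coding genes carry such a symbol, so 38 had no row, among them both subunits of the enzyme that starts glutathione synthesis (Gclc and Gclm), the quinone reductases Nqo1 and Nqo2, the extracellular dismutase Sod3 and the thioredoxin inhibitor Txnip. The table lists only genes at or above 7 TPM (transcripts per fixed library total, a level corrected for transcript length) in every library, so the families were described without these members, whatever their level in single libraries.

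The libraries came from the perioculomotor (pIII) region of the midbrain of C57BL/6 mice that express CreER under the Fos promoter and a Cre-inducible eGFP-L10a reporter, a ribosomal protein with a fluorescent tag. All mice had 6 hr of sleep deprivation and 3 hr of recovery sleep, and 4-OHT, which activates CreER, was given just before one of these phases. The series text names the neurons of recovery sleep, while the labels of single libraries do not repeat the phase. RNA bound to tagged ribosomes (IP, 3 libraries) was compared with Input (3 libraries), read here as the RNA of the tissue before that step. Each repeat pooled 4 to 5 mice. As a model, the tag marks cells that were active enough to switch on Fos near the injection, whatever their type, and an antibody pull-down can also hold untagged RNA, the amount of which is not known here.

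Cells make superoxide and hydrogen peroxide as by-products of respiration. Superoxide dismutases turn superoxide into hydrogen peroxide, and glutathione peroxidases and peroxiredoxins reduce peroxides to water or alcohols, drawing electrons from glutathione or thioredoxin, which NADPH-dependent reductases recharge. Glutathione transferases attach glutathione to reactive compounds. In brain tissue glutathione metabolism is strong in astrocytes, and neurons depend in part on precursors that astrocytes release.

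Some of the families taken by symbol hold selenocysteine, an amino acid encoded by a TGA codon that is read through instead of ending translation. It was annotated in 6 of the 37 members, among them every measured glutathione peroxidase and thioredoxin reductase. The codons are shown because Gpx3, the member with the lowest difference, carries one, and other genes with the codon are compared with these members below. Each line gives the coding strand 5′ to 3′ from the GENCODE M21 transcripts (GRCm38), with the selenocysteine codon in capitals and up to 15 coding bases on each side.
Gpx1: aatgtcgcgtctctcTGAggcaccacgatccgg
Gpx3: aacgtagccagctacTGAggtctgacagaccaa
Gpx4: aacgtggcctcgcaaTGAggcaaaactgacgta
Txnrd1: ctccagtctggctgcTGAggt
Txnrd2: actgtgactggttgcTGAggc
Msrb1: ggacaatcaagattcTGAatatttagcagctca
In the peroxidases the codon lies well inside the reading frame, at codon 47 of 201 in Gpx1, 73 of 226 in Gpx3 and 129 of 253 in Gpx4. In both thioredoxin reductases it is the last codon but 1 before the stop (498 of 499 and 526 of 527), directly after a cysteine codon. In Msrb1 it is codon 95 of 116.

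Levels are given in TPM. Differences are IP minus Input in log2(TPM + 1) after subtracting from every library the value of its median gene, called centring. The median gene stood between 27.7 and 67.2 TPM. Input 3 stood apart from the other Inputs, with r = 0.722 and 0.736 across all genes against 0.973 between Inputs 1 and 2. Among the 37 members these were 0.796, 0.810 and 0.980. IP 1 also stood apart, at 0.831 and 0.882 with the other IP libraries against 0.962 between those. Values are therefore given with all 6 libraries and again without IP 1 and Input 3. Transcripts of the tagged protein, Rpl10a, were at 559, 365 and 439 TPM in the IP libraries and 117, 61.8 and 36.2 in the Inputs, with every IP library above every Input. Of 9 marker genes of neurons in this region, the cholinergic genes Chat, Slc18a3 and Isl1 and the peptide gene Calca stood above 0 (1.20 to 1.86). Cartpt, Ucn, Cck, Th and Tph2, markers of peptide, dopamine and serotonin neurons, stood below it (-0.77 to -0.13), and none of the 9 passed with all libraries. In tissue RNA of this kind, fewer cells of a type and less RNA per cell cannot be told apart.

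The antioxidant group as a whole did not stand above or below other genes in IP. The median member differed by 0.08, against 0.02 for all genes, with 22 members above and 15 below 0. No member passed in limma with Benjamini-Hochberg adjustment over all genes (0 higher, 0 lower, and 0% of all genes in each direction). The smallest adjusted p among members was 0.649. At an unadjusted p of 0.05 there was 1 member lower, Gpx3 (2.70%), and 0 higher (0%). Of all genes 213 were lower (3.85%) and 198 higher (3.58%). The 3 IP values lay wholly above the 3 Input values in 1 member (2.70%, against 6.93% of all genes) and wholly below in 3 (8.11%, against 9.71%), shares that are no larger than those of all genes. Those members were Txnrd2 above, and Gpx3, Txndc9 and Txnl1 below. Without IP 1 and Input 3 the median member was at -0.22 (all genes -0.04), 27 of 37 were below 0 (53.8% of all genes were), and limma placed 5 lower and 0 higher at an adjusted p of 0.05. The 5 were Gpx3, Prdx1, Gstm1, Gstm5 and Gstm6. They make 13.5% of members, where 2.89% of all genes were lower and 3.38% higher. In each of these 5 genes Input 3, which that comparison leaves out, was far below Inputs 1 and 2 too. The comparison rests on 2 libraries against 2 that were chosen with their values known.

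**Figure D1:**
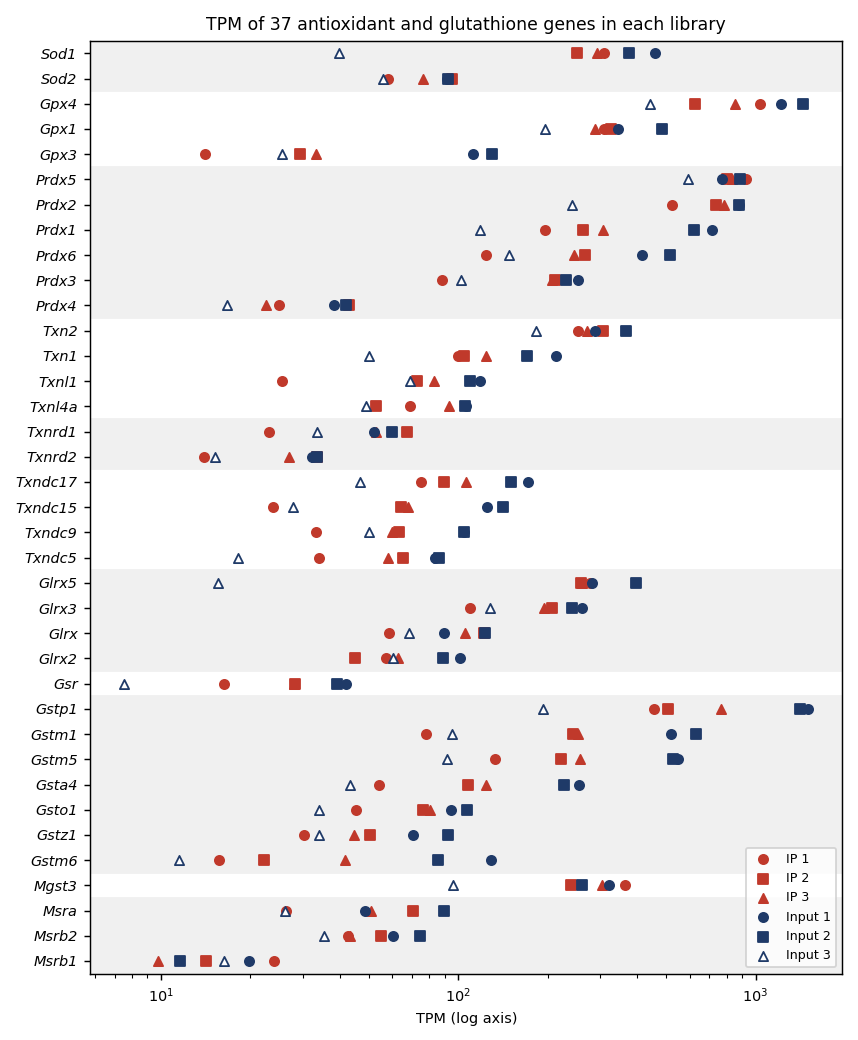
TPM (log axis) of the 37 members in each library, grouped by family in bands, red for IP and dark blue for Input, Input 3 being an open triangle. Prdx5, Gpx4 and Gstp1 reach the highest levels, and in the Gst genes Inputs 1 and 2 lie to the right of every IP library while Input 3 lies among or below them.

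As a whole the members took 0.699, 0.798 and 0.849 percent of the listed TPM in IP 1, IP 2 and IP 3, 1.25 and 1.31 percent in Inputs 1 and 2, and 0.407 percent in Input 3. They were abundant genes: 21 of 37 (56.8%) stood above the median gene in all 6 libraries, against 32.7% of all genes. The lowest of the 6 TPM values was that of Input 3 in 23 members (62.2%, against 40.4% of all genes) and that of IP 1 in 12. In uncentred TPM, 31 members had a lower mean in IP and 6 a higher one, on a scale where the median gene itself stood at -0.23. On that scale groups did not overlap in 0 members above (1.70% of all genes) and 0 below (6.21%). With centring, all IP values were below both Input 1 and Input 2 in 13 of 37 members (20.2% of all genes) and above both in 4 (18.1%).

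Both superoxide dismutases overlapped between IP and Input. Sod1, the copper-zinc enzyme of the cytosol, had 310.1, 250.6 and 292 TPM in the pull-downs, against 459, 376 and 39.6 in Inputs 1, 2 and 3. In TPM the IP values lay between Input 3 and the other Inputs, while after centring IP 1 was the highest of all 6 libraries. Its log2 difference of 0.81 (SE 0.68) changed sign without IP 1 and Input 3 (-0.33, SE 0.21). Sod2, the manganese enzyme of mitochondria, had 57.9, 95.3 and 76.4 TPM in the pull-downs, against 91.4, 92.5 and 56.0 in Input, a difference of 0.19 (SE 0.25) that was 0.18 without those libraries. Neither dismutase differed beyond the spread of its libraries.

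Glutathione peroxidases divided. Gpx4, which reduces lipid peroxides inside membranes, had the highest mean TPM of all 37 members. It had 1037, 628 and 852 TPM in the pull-downs, against 1215, 1444 and 442 in Input, with overlapping groups and a difference of 0.08 (SE 0.49). Gpx1, the common cytosolic enzyme, had 309, 328 and 287 TPM in the pull-downs, against 345, 484 and 196 in Input, a difference of 0.19 (SE 0.35). Both were within 1 SE of 0 and turned negative without IP 1 and Input 3 (-0.57 and -0.12). Gpx3, a secreted peroxidase, was the lowest member in IP relative to Input. It had 14.1, 29.3 and 33.3 TPM in the pull-downs, against 112, 129.8 and 25.6 in Inputs 1, 2 and 3. In TPM Input 3 lay among the IP libraries, while after centring it lay above all of them (-0.27, against -0.93, -0.93 and -0.60). The difference was -1.31 (SE 0.36, unadjusted p = 0.0073, limma adjusted p = 0.649), which is percentile 0.199 of the differences of all genes, and -1.63 (SE 0.20, adjusted p = 0.0035) without IP 1 and Input 3. Gpx3 lies on chromosome 11 (54902453 to 54910377).

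Peroxiredoxins, which reduce hydrogen peroxide with a reactive cysteine, summed to 1886, 2329 and 2404 TPM in the pull-downs, against 3071, 3183 and 1221 in Input. In every library except Input 1 this was the highest sum of any of the families. Of the 6 measured, 4 were above 0 and 2 below, with a median difference of 0.12. Prdx5, found in mitochondria, peroxisomes and cytosol, was at 930.3, 805 and 836 TPM in the pull-downs, against 769, 888 and 594 in Input. Its difference was 0.45 (SE 0.42) and 0.28 without IP 1 and Input 3. Prdx2, a cytosolic form that neurons make in large amounts, had 523, 738 and 785 TPM in the pull-downs, against 880.4, 883 and 242 in Input (0.47, SE 0.35, and 0.08 without those libraries). Prdx3 of mitochondria and Prdx4 of the endoplasmic reticulum differed by 0.04 and 0.20 and overlapped.

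Prdx1 and Prdx6 were the 2 below 0, with overlapping groups and no call with all libraries. Prdx1, a cytosolic peroxiredoxin known as a target of the stress factor NRF2, had 196, 263 and 307 TPM in the pull-downs, 715 and 622 in Inputs 1 and 2, and 118 in Input 3. All IP libraries were below Inputs 1 and 2 and above Input 3. The difference was -0.33 (SE 0.45) with all libraries and -0.94 (SE 0.20, limma adjusted p = 0.0332) without IP 1 and Input 3. Prdx6, a single-cysteine form that uses glutathione and is rich in astrocytes, had 124, 268 and 246 TPM in the pull-downs, 416 and 517 in Inputs 1 and 2, and 148 in Input 3 (-0.41, SE 0.28). Without those libraries it was at -0.56 (adjusted p = 0.114), which did not pass.

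**Figure D2:**
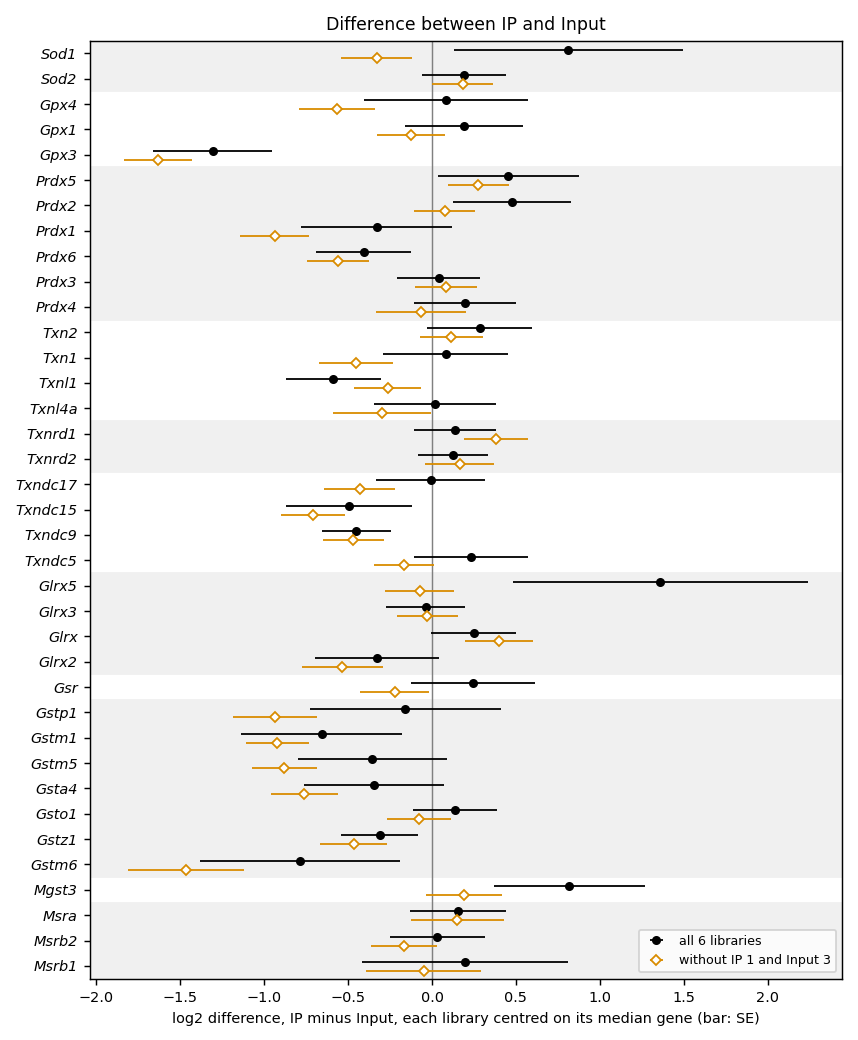
Log2 difference (IP minus Input, each library centred on its median gene) for the 37 members with SE bars, from all 6 libraries (black) and without IP 1 and Input 3 (open orange). Most Gst genes, Gpx3 and Prdx1 lie further to the left without those libraries, and Glrx5 and Sod1 move from above 0 to below it.

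The thioredoxin system feeds electrons to peroxiredoxins. Txn2, the mitochondrial thioredoxin, had 253, 306 and 272 TPM in the pull-downs, against 288, 368 and 183 in Input (difference 0.28, SE 0.31). Txn1, the cytosolic one, had 100.2, 105 and 124 TPM in the pull-downs, against 213, 171 and 50.2 in Input (0.08, SE 0.37, and -0.45 without IP 1 and Input 3). Their groups overlapped. The reductases that recharge them, Txnrd1 in the cytosol and Txnrd2 in mitochondria, stood slightly above 0 (0.14, SE 0.24, and 0.12, SE 0.21). Txnrd1 had 23.1, 67.3 and 53.1 TPM in the pull-downs, against 52.3, 59.8 and 33.4 in Input, and its groups overlapped. Txnrd2 had 13.9, 33.4 and 27.1 TPM in the pull-downs, against 32.1, 33.5 and 15.2 in Input, and its centred groups did not overlap, with the 3 Inputs alike (-0.98 each, against -0.94, -0.74 and -0.89 in IP). In TPM its groups overlapped fully.

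Proteins with a thioredoxin fold but other roles gave values on both sides of 0, and none passed in limma. Txnl1, a thioredoxin-like protein bound to the proteasome, had 25.5, 72.5 and 83.0 TPM in the pull-downs, against 119, 109.95 and 68.8 in Input. Its centred groups did not overlap (-0.59, SE 0.28), yet the difference was -0.26 without IP 1 and Input 3, and Input 3 held its highest centred value. Txndc9, which acts with chaperonins on protein folding, had 33.3, 63.1 and 60.1 TPM in the pull-downs, against 104, 105 and 50.1 in Input. Its difference of -0.45 (SE 0.21) hardly moved without IP 1 and Input 3 (-0.47), and Input 3 lay beside the other Inputs after centring (0.67, against 0.69 and 0.64). It did not pass in limma in either comparison (adjusted p = 0.658 and 0.165). Txndc15, a membrane protein, had 23.8, 64.2 and 67.9 TPM in the pull-downs, against 125, 141 and 27.9 in Input (-0.49, SE 0.38). Txndc17, a small cytosolic reductase, had 75.2, 89.4 and 106 TPM in the pull-downs, against 172, 151 and 46.7 in Input (-0.01, SE 0.32). In both, Inputs 1 and 2 were highest and Input 3 was low. Txndc5, a disulfide isomerase of the endoplasmic reticulum, was at 0.23. Txnl4a, a spliceosome component in spite of its symbol, was at 0.02.

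Glutaredoxins use glutathione to reduce protein thiols, or carry iron-sulfur clusters. Glrx5, which serves cluster assembly in mitochondria, had the largest positive difference of the 37. It had 278, 258 and 261 TPM in the pull-downs, 281 and 397 in Inputs 1 and 2, and 15.6 in Input 3. The difference of 1.36 (SE 0.88) rested on Input 3: it was 0.27 without that library and -0.07 (SE 0.21) without IP 1 as well. Glrx3, a cytosolic cluster carrier, had 109.9, 207 and 195 TPM in the pull-downs, against 260.2, 241 and 128 in Input (-0.04, SE 0.23). Glrx, the classical cytosolic enzyme, was at 0.25 (SE 0.25), with 58.8, 123 and 105 TPM in the pull-downs, against 89.5, 123 and 68.5 in Input. Glrx2 of mitochondria was at -0.33 (SE 0.37). None of the glutaredoxins had groups that did not overlap. Gsr, which recharges oxidised glutathione, was a low gene, with 16.3, 28.3 and 28.0 TPM in the pull-downs, against 41.9, 39.3 and 7.55 in Input (0.24, SE 0.37, and -0.22 without IP 1 and Input 3).

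Among families with at least 3 measured members, the glutathione transferases of the cytosol had the lowest median, -0.35 over 7 members, of which 6 were below 0. Their summed level was 811, 1229 and 1566 TPM in the pull-downs, 3123 and 3084 in Inputs 1 and 2, and 502 in Input 3. Inputs 1 and 2 thus held about as much as each other, each IP library less, and Input 3 least. Input 3 was the lowest Input in all 7 after centring (43.3% of all genes). The family median was negative in each of the 12 alternatives tried, from -0.88 without IP 1 and Input 3 to -0.08 without Input 1, and was -0.81 without Input 3 and -0.17 without Input 2. These alternatives reuse the same 6 libraries, so their shared sign is not independent support. Across libraries of a group the family median had an SD of 0.59, larger than the difference with all libraries. No member was called with all 6 libraries, and none of the 7 had groups that did not overlap.

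The mu class genes Gstm1, Gstm5 and Gstm6 lie on chromosome 3 within 122 kb (107895821 to 108017973). Gstm1 had 78.2, 243 and 252 TPM in the pull-downs, against 522, 632 and 95.4 in Inputs 1, 2 and 3. Gstm5 had 133, 222 and 257 TPM in the pull-downs, against 548, 528 and 91.8 in Input. Gstm6 had 15.7, 22.3 and 41.7 TPM in the pull-downs, against 129, 85.5 and 11.5 in Input. In all 3 every IP library was below Inputs 1 and 2 and Input 3 was near or below the lowest IP library. Their differences were -0.66 (SE 0.48), -0.36 (SE 0.44) and -0.78 (SE 0.60) with all libraries. Without IP 1 and Input 3 they were -0.92, -0.88 and -1.46, with limma adjusted p of 0.0268, 0.0359 and 0.0441. These paralogs are alike in sequence, and how reads that match several of them were divided was not given in the sources used here, which leaves their single values uncertain.

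In the pi and alpha classes Inputs 1 and 2 again held the most and Input 3 the least. Gstp1, the most abundant transferase, had 455, 507 and 766 TPM in the pull-downs, against 1504, 1412 and 193 in Input (-0.16, SE 0.57, and -0.94 without IP 1 and Input 3, adjusted p = 0.0624). Its close copies Gstp2 and Gstp3 had no row, so reads may be shared with them. Gsta4, which clears the lipid peroxidation product 4-hydroxynonenal, had 54.1, 108 and 124 TPM in the pull-downs, against 255, 226 and 43.2 in Input (-0.35, SE 0.42, and -0.76, adjusted p = 0.0622). Gsto1 and Gstz1, of the omega and zeta classes, were at 0.14 (SE 0.25) and -0.31 (SE 0.23) and at -0.08 and -0.47 without those libraries. Mgst3, a membrane-bound transferase of a separate family, was at 0.82 (SE 0.45) with 365, 239.97 and 305 TPM in the pull-downs, against 322, 260.5 and 95.9 in Input. Without IP 1 and Input 3 it was at 0.19, so most of that difference rested on those libraries.

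**Figure D3:**
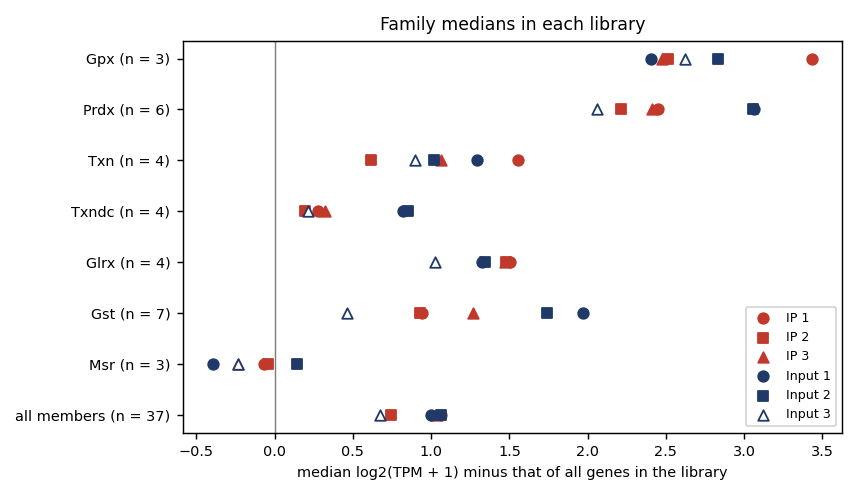
Median log2(TPM + 1) of each family with at least 3 measured members, and of all members, after subtracting the median gene of that library. For Gst, Prdx and Txndc the IP libraries lie below Inputs 1 and 2, and Input 3 lies among or below the IP libraries. For Glrx the IP libraries lie slightly above all Inputs.

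Markers of several other cell types, and some of neurons, had a like order of libraries, with Inputs 1 and 2 highest. Of 15 astrocyte genes 8 were measured, and their summed level was 1337 to 3521 TPM in the pull-downs, 5774 and 6699.9 in Inputs 1 and 2, and 1149.9 in Input 3. The median astrocyte marker differed by -0.32 with all libraries, with 6 of 8 below 0, and by -0.54 without IP 1 and Input 3. In that comparison Agt, Ntsr2 and Apoe passed as lower in limma (adjusted p = 0.0247, 0.00627 and 0.0296), where 2.89% of all genes were lower. Input 3, which it leaves out, was far below Inputs 1 and 2 in Agt, Ntsr2 and Apoe (11.9, 10.4 and 195 TPM). Gfap and S100b did not follow that order, and Gfap was highest in Input 3 (67.3 TPM, against 14.9 to 35.8 in the others). The defining markers Aqp4, Gja1, Slc1a2, Slc1a3 and Aldh1l1 had no row, none being listed at 0. Oligodendrocyte markers (7 of 11 measured) summed to 439 to 4901 TPM in the pull-downs, 5057 and 6128 in Inputs 1 and 2, and 634 in Input 3. Their median was -0.60, with 5 of 7 below 0, and Mal and Trf passed as lower without IP 1 and Input 3 (limma adjusted p = 0.0491 each). Mbp and Mobp stood above 0 (0.23 and 0.10, and 0.41 and 0.34 without those libraries). Mbp, the most abundant of them, was highest in IP 3 (2632 TPM, against 1650 and 2395 in Inputs 1 and 2). Blood genes (2 of 5) summed to 48.4 to 234 TPM in the pull-downs, 365 and 932 in Inputs 1 and 2, and 19.4 in Input 3, with a median of -0.61.

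The 9 neuron markers of the region summed to 1536 to 2639 TPM in the pull-downs, 4963 and 5334 in Inputs 1 and 2, and 954 in Input 3. Most of the sum in Inputs 1 and 2 came from Cartpt (2237 and 2769 TPM) and Tph2 (1792 and 1171). Without IP 1 and Input 3, Cartpt and Ucn passed as lower (-1.07 and -0.90, limma adjusted p = 0.0146 and 0.0407), while Chat, Slc18a3, Isl1 and Calca passed as higher (1.68 to 1.90, adjusted p = 0.00120 to 0.00625). Of all genes 2.89% were lower and 3.38% higher in that comparison, which was chosen with values known. In Cartpt, Ucn, Cck, Th and Tph2 Inputs 1 and 2 were highest in TPM, so that order is not particular to astrocyte genes. In Chat, Slc18a3, Isl1 and Calca every IP library was above Inputs 1 and 2 instead. For Slc18a3 the left-out Input 3 had 176 TPM, among the IP libraries (164, 215 and 132) and above Inputs 1 and 2 (43.1 and 69.3). Neuron markers (10 of 10) summed to 4684 to 10726 TPM in the pull-downs, against 7545 and 8306 in Inputs 1 and 2 and 5074 in Input 3. Microglial markers (2 of 10) summed to 21.4 to 38.6 TPM, against 56.4, 85.5 and 33.2, and the 1 endothelial marker of 6, Ly6c1, was at 50.3 to 278 against 34.9, 35.4 and 21.9. Whether these cell types have a part in the transferase and peroxidase values was not tested.

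**Figure D4:**
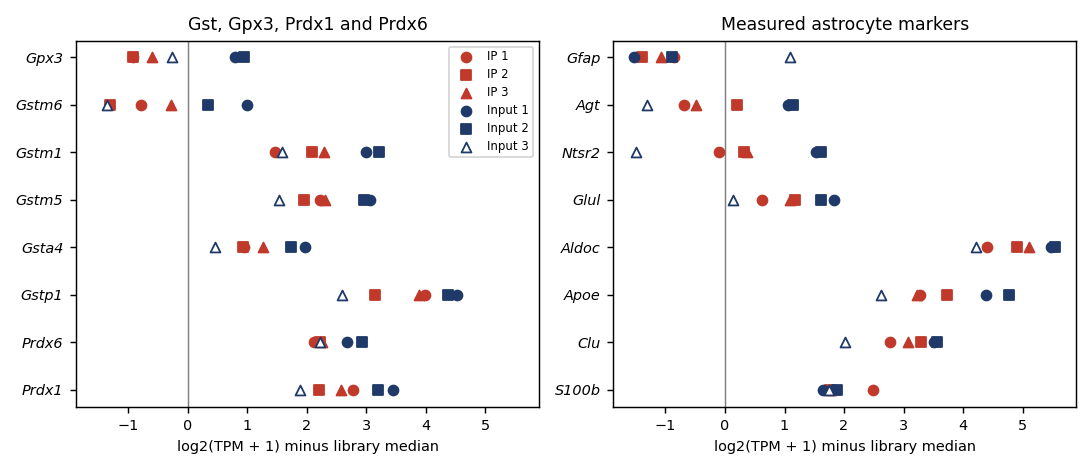
Log2(TPM + 1) minus the library median of 8 members (left) and the 8 measured astrocyte markers (right) in each library, red for IP and dark blue for Input, Input 3 being an open triangle. In the left panel all IP points lie left of Inputs 1 and 2, and Input 3 lies among or left of the IP points except in Gpx3, where it lies between; most markers on the right have the same order, apart from Gfap and S100b.

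Promoters were read because the mu transferases and Prdx1 had a like order of libraries and belong to families known as targets of NRF2, a factor that binds the antioxidant response element. The core of that element, TGACNNNGC, was searched on both strands from 250 bases before to 50 after each RefSeq start site (GRCm38.p6). It was present in 6 of 46 promoters of the 31 members that had one (13.0%), against 12.4% of 32851 promoters in the table. The members were Gstm5, Msrb2, Prdx1, Sod1, Txndc5 and Txnrd1, which had differences on both sides of 0. Among the 5 genes lower without IP 1 and Input 3, Gstm5 and Prdx1 held the core, and Gpx3, Gstm1 and Gstm6 had no match in any promoter read. These genes were picked by their values and counted by gene, so the shares by promoter cannot be set beside them. The core is in capitals in the 2 promoters that follow, each 5′ to 3′ on the strand of its gene. In Prdx1 the core is on the opposite strand, and its capitals show the reverse complement. A match is a description of letters, and says nothing of whether the factor binds there.
Gstm5, chr3:107895604-107895903, plus strand: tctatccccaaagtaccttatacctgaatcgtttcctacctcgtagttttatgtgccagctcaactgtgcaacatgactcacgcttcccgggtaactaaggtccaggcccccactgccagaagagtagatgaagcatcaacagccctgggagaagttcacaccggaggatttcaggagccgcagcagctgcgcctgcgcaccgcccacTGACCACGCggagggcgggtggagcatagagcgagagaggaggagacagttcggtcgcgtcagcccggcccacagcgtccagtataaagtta
Prdx1, chr4:116685349-116685648, plus strand: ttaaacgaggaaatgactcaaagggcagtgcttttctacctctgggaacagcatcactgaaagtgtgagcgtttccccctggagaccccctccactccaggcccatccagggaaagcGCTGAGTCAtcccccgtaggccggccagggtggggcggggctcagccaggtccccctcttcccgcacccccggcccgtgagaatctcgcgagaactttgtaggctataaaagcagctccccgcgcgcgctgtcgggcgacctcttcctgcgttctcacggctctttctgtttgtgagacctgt

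Methionine sulfoxide reductases, which repair oxidised methionine in proteins, were low to middling genes with no difference beyond their spread. Msra, which acts on the S form, had 26.3, 70.4 and 51.0 TPM in the pull-downs, against 48.7, 89.5 and 26.3 in Input (0.15, SE 0.29). Msrb2 of mitochondria had 42.7, 54.9 and 43.1 TPM in the pull-downs, against 60.6, 74.2 and 35.4 in Input (0.03, SE 0.28). Both overlapped between groups. Msrb1, the selenocysteine form, had the lowest mean TPM of all members, 23.9, 14.2 and 9.79 in IP and 19.7, 11.6 and 16.3 in Input (0.19, SE 0.61).

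Other genes of the redox network were read from a list of 74, of which 50 were measured. Their median difference was 0.04, with 27 above and 23 below 0. None passed in limma (0 higher, 0 lower), and at an unadjusted p of 0.05 there was 1 above and 3 below (2% and 6%, against 3.58% and 3.85% of all genes). The groups did not overlap in 1 gene above (2%) and 5 below (10.0%), against 6.93% and 9.71% of all genes. The 1 above was Mafg, a small partner of NRF2, with 319, 256 and 281 TPM in the pull-downs, against 71.7, 43.2 and 106 in Input (2.27, SE 0.63, adjusted p = 0.649, and 2.53, adjusted p = 0.00133, without IP 1 and Input 3). The 5 below were Glo1, Sesn1 and the selenoproteins Selenok, Selenof and Selenos. Glo1, which clears methylglyoxal with glutathione, had 82.9, 129 and 132 TPM in the pull-downs, against 223, 231 and 100.4 in Input (-0.37, SE 0.24). Sesn1, a sestrin, had 7.34, 26.1 and 25.4 TPM in the pull-downs, against 42.7, 44.7 and 16.5 in Input (-0.60, SE 0.29). In TPM Input 3 lay among the IP libraries in both. Keap1, the repressor of NRF2, was at 0.40 (SE 0.25), catalase (Cat) at -0.05 and Srxn1, which repairs overoxidised peroxiredoxins, at 0.15. Gss, which completes glutathione synthesis, was at 0.34 (SE 0.24).

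Iron storage genes were the most abundant of that list. Fth1, the heavy ferritin chain, had 1801, 2386 and 2512 TPM in the pull-downs, against 4676, 5596 and 1408 in Input (-0.34, SE 0.41, and -0.78, adjusted p = 0.0446, without IP 1 and Input 3). Ftl1, the light chain, had 8686, 2931 and 4335 TPM in the pull-downs, 861 and 1229 in Inputs 1 and 2, and 8957 in Input 3 (1.43, SE 1.23, and 2.08, adjusted p = 0.00373). The light chain was thus high in every IP library and in Input 3, and the heavy chain low in the same libraries. Both genes have processed copies in the genome, which can share reads with them. Akr1a1 had 483, 747 and 748 TPM in the pull-downs, against 1110.1, 1276 and 422 in Input (-0.14, SE 0.31).

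Selenoproteins outside the antioxidant families stood lower in IP than the members with the same codon. Of 7 measured, 6 were below 0, with a median of -0.71, while 5 of the 6 selenocysteine members were above 0, with a median of 0.13. Without IP 1 and Input 3 the medians were -0.52 and -0.087, with 6 of the 7 and 4 of the 6 below 0. The opposite direction of the 2 sets thus rested on those libraries. The groups did not overlap in 3 of the 7, all below (9.71% of all genes), and no test of the difference between the sets was made. The codons of those 3 are shown for comparison with the members, in the same form.
Selenof: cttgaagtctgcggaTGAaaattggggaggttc
Selenok: ccaatggctggtggaTGAggaagg
Selenos: ccatcatctggcggcTGAaac
As in the thioredoxin reductases, the codon lies near the end in Selenok (92 of 94) and Selenos (189 of 190), and in Selenof it is codon 93 of 162. All 3 genes encode proteins of the endoplasmic reticulum. Selenof had 74.9, 177 and 174 TPM in the pull-downs, against 322, 295 and 181 in Input (-0.71, SE 0.25, unadjusted p = 0.0254). Selenok had 76.7, 117 and 139 TPM in the pull-downs, against 257, 263 and 117 in Input (-0.64, SE 0.25), and Selenos 9.71, 38.3 and 31.9 against 48.7, 67.2 and 57.9 (-1.04, SE 0.40). For these genes Input 3 lay beside or above the other Inputs after centring, unlike in the transferases. Limma gave each an adjusted p of 0.649, and without IP 1 and Input 3 the differences were -0.52, -0.74 and -0.41 and did not pass (adjusted p = 0.133, 0.0643 and 0.285). Selenow had 437, 265 and 337 TPM in the pull-downs, against 854, 766 and 507 in Input, but its centred groups overlapped (-0.78, SE 0.47). It passed without IP 1 and Input 3 (-1.14, adjusted p = 0.0196). Selenop, which carries selenium between cells, was at -1.06 (SE 0.55), with 12.7, 79.9 and 44.0 TPM in the pull-downs, against 147, 188 and 26.2 in Input, and passed there as well (-1.18, adjusted p = 0.0332).

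**Figure D5:**
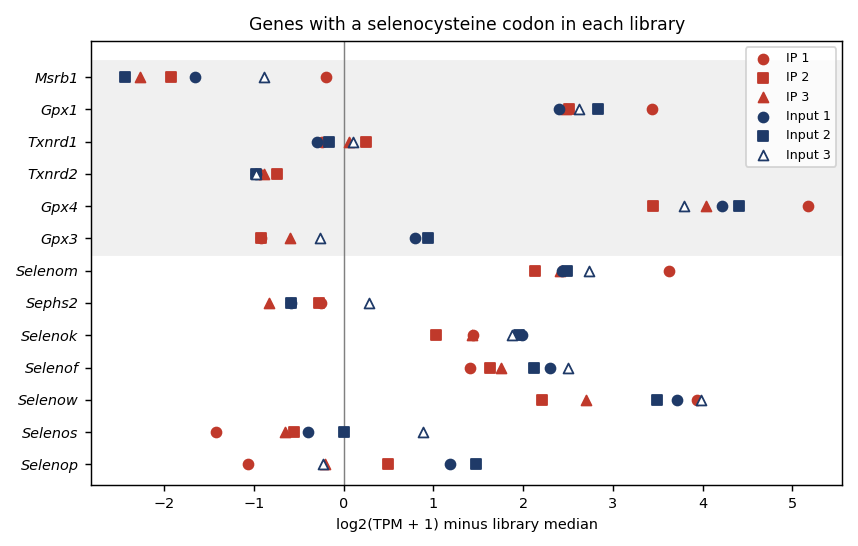
Log2(TPM + 1) minus the library median of the 13 genes with an annotated selenocysteine codon, members in the shaded band and related genes under it, red for IP and dark blue for Input, Input 3 being an open triangle. IP points lie left of all Input points in Gpx3, Selenok, Selenof and Selenos, while Gpx1, Gpx4, Msrb1 and Txnrd1 overlap.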

How the data were processed

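RNA was measured in 3 IP and 3 Input libraries. The deposited table holds TPM by the authors, per the file headers. RSEM, DESeq and mm10 are named in the submitters' processing notes, without versions or roles, and for the aligner none was given in the sources used here. TPM keep no read depth, so depth per sample, counting intervals and detection limits are unknown. No value column was left out (0 unused), the table's lowest value was 7, and listed genes sum to 855954 to 885495 TPM per library.

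Values were transformed to log2(TPM + 1), the value of the median gene was subtracted within each library, and IP was compared with Input in limma 3.58.1 (R 4.3.3, lmFit, eBayes with trend, group as the only term), adjusting p over all 5538 genes by Benjamini-Hochberg (threshold 0.05). This scale understates changes of low genes. A mean TPM of at least 1 was required, which removed 0 genes. An exact two-sided permutation test of 3 against 3 cannot go below 0.1, so none was used. Each repeat is a pool of mice, so p-values measure the spread between pools.

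Members and lists were chosen with earlier results of these data known. Values in every library were given for the 3 most abundant members of each family, members with non-overlapping groups and the 6 largest differences; other named genes, and the grouping of transferases by class, were chosen after their values were seen. Coordinates and codons come from GENCODE M21 (37 of 37 members matched by ID) and promoters from RefSeq (GRCm38.p6). Some marker genes are not reported here and were left out of the marker lists.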

Additional observations from a re-analysis of the deposited data

How the results depend on the processing

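The fit with the replicate number as a block (replicate block) called 0 members and left the median member at 0.08. Deviations of same-numbered libraries had r = -0.10, 0.25 and -0.17 for numbers 1, 2 and 3. Between differently numbered IP and Input libraries r was -0.25 to 0.19. With 3 libraries per group, of which IP 1 and Input 3 stood apart, these values cannot show whether the numbers are pairs. The labels do not say that they are, so the main fit did not use them. A pseudocount of 0.1, a mean TPM of at least 20 and the block changed the sign of no member.

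Without IP 1 and Input 3, a comparison chosen with earlier results known, 187 genes were higher and 160 lower, with 5 members lower and, of the related genes, 2 higher and 4 lower. Groups of 2 against 2 did not overlap in 5 members above and 18 below (13.5% and 48.6%), in 8 and 22 related genes (16% and 44%), and in 25.2% and 31.5% of all genes. Medians became -0.22 for members, -0.051 for glutaredoxins and -0.57 for peroxidases. Differences turned negative in 12 members: Glrx5 (-0.074), Gpx1 (-0.12), Gpx4 (-0.57), Gsr (-0.22), Gsto1 (-0.078), Msrb1 (-0.050), Msrb2 (-0.17), Prdx4 (-0.064), Sod1 (-0.33), Txn1 (-0.45), Txndc5 (-0.17) and Txnl4a (-0.30).

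Without centring, non-overlapping groups numbered 0 members above and 0 below. Related genes numbered 2 and 3 (4% and 6%), where all genes had 1.70% and 6.21%. Txnl4a was at -0.0023 there after the median difference of all genes (-0.23) was subtracted. Before that subtraction 30 of 37 members were below 0. Quantile normalization gave 3 related genes above (6%, against 6.32% of all genes) and a peroxidase median of -0.34. It gave negative differences in Gpx4 (-0.34), Msrb2 (-0.0018), Prdx3 (-0.0052) and Txnl4a (-0.040). The cause was not tested.

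Leaving out each library in turn gave 0 to 16 genes higher and 0 to 1 lower, the most without Input 3. Non-overlapping members ranged from 1 to 4 above (2.70% to 10.8%) and 3 to 13 below (8.11% to 35.1%). Related genes ranged from 2 to 6 (4% to 12%) and 5 to 11 (10% to 22%). The shares of all genes were 9.10% to 18.1% above and 12.5% to 20.2% below. The share of members was larger than that of all genes only below, without Input 3. The most below, 13 members (35.1%), came without Input 3, where 20.2% of all genes were below and 18.1% above. Medians ranged from -0.17 to 0.11 for members, -0.39 to 0.34 for peroxidases and -0.22 to 0.20 for sulfoxide reductases. In 14 of 37 members the difference changed sign: Gpx1 (-0.12 to 0.36), Gpx4 (-0.39 to 0.47), Gsr (-0.16 to 0.49), Gsto1 (-0.024 to 0.25), Gstp1 (-0.78 to 0.19), Msra (-0.0064 to 0.40), Msrb1 (-0.44 to 0.60), Msrb2 (-0.22 to 0.20), Prdx3 (-0.042 to 0.14), Prdx4 (-0.013 to 0.49), Txn1 (-0.20 to 0.32), Txndc5 (-0.13 to 0.42), Txndc17 (-0.24 to 0.18) and Txnl4a (-0.28 to 0.40). Catalase (Cat) did too (-0.29 to 0.22). TPM keep no read depth, so precision for low genes such as Msrb1 and Gsr is unknown.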
